A study of Homo sapiens with 3 samples.

Results

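The 56 genes described here encode the machinery of mitosis: the mitotic cyclins and kinases, the spindle checkpoint, the kinesin motors, the kinetochore, the chromosome-condensing complexes and the proteins of cytokinesis. They were chosen by gene symbol from a list, with earlier results of these data known, and all 56 had a row among the 13936 genes of the deposited table. They were read in AB12, a mouse malignant mesothelioma cell line, in 2 libraries carrying the label shNF2, which came with the numbers 20 and 21 (library 20 and library 21), and in 1 library labelled shSC, taken as the control hairpin. Column names in the table mark the shNF2 libraries as KD and the shSC library as WT. All 3 were grown in RPMI with serum and no other treatment is given in the labels, which also do not say whether 20 and 21 are hairpins, clones or cultures. The organism label reads human, but the gene identifiers are those of mouse and mm10 is the build in the submitters' processing notes, so the values were treated as mouse.

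Mitotic genes are transcribed in a wave that peaks as cells pass from DNA replication into division. In resting and early-cycle cells many of them are held silent by the DREAM complex, and the transcription factors Mybl2 and Foxm1 turn them on later. Their messages are therefore a common readout of how many cells in a culture are cycling. NF2 is the gene of merlin, a tumour suppressor under the plasma membrane that restrains growth through the Hippo pathway and is often lost in mesothelioma.

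Reads assigned to genes numbered 25837151 in library 20, 26829163 in library 21 and 29532600 in shSC, and the least abundant of the 56 genes had 408 reads in its lowest library. Values are scaled counts as deposited, which are reads divided by 1 factor per library. Nf2, the targeted gene, had 486 and 458 scaled counts in libraries 20 and 21, against 1539 in shSC (log2 fold change -1.70 ± 0.24, SE; limma adjusted p = 0.00555). Of 8 mesothelial markers 5 had a row, with summed scaled counts of 39947, 33759 and 43900 in library 20, library 21 and shSC; Wt1, Upk3b and Pdpn had none. Of these 5, the keratin gene Krt7 passed the test and the other 4 did not, with 290 and 183 scaled counts of Krt7 in libraries 20 and 21 against 49.7 in shSC (log2 fold change 2.19 ± 0.36, SE; limma adjusted p = 0.0118). Markers of other cells were scarce. Of 6 macrophage markers 2 had a row (Cd68 and Lyz2, summing to 365, 195 and 145 in the same order), of 5 fibroblast markers 1, and of the 5 lymphocyte and 4 endothelial markers 0. The part of these markers in the results was not tested.

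Most mitosis and spindle genes were moderately above the control in both shNF2 libraries, at a median of 1.34 times the shSC level, and no single one passed the test. Of the 56 genes, 45 were above shSC in both shNF2 libraries, 4 were below it in both and 7 had 1 shNF2 library on each side of it. Over all 12813 genes tested, 36.1% were above shSC in both and 35.8% below it in both. The median log2 fold change of the 56 genes was 0.42, beside a median of -0.00429 over all genes tested. Taken one library at a time, 47 genes were above shSC in library 20 with a median of 0.37, and 50 in library 21 with a median of 0.46. Of all genes 50.7% and 49.5% were above shSC in these libraries. Both comparisons share the single shSC library, so the shared direction is not a replication, and a low shSC value would place a gene above it in both.

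Each gene was tested with limma on log2(scaled count + 1), with Benjamini-Hochberg adjustment over all genes and a threshold of 0.05; errors given with fold changes are standard errors from that fit. Of the 56 genes 0 passed, with adjusted p between 0.157 and 0.999, where 0.414% of all genes were called higher and 0.429% lower; edgeR and DESeq2 also called 0 of the 56, beside 0.632% and 0.765% of all genes in either direction. At an unadjusted p under 0.05, 19 of the 56 were higher and 0 lower, beside 4.36% and 4.91% of all genes. A log2 fold change of at least 0.4 was seen for 29 of the 56 genes, beside 12.2% of all genes, and one of at least 0.8 for 4, beside 3.39%. The standard errors of the 56 genes ran from 0.21 to 0.29, so the interval of a single gene near the median of 0.42 held or nearly held 0. The spread of each gene has 1 residual degree of freedom, so its standard error rests mostly on the variance trend over all genes. The shSC library is assumed to vary like the shNF2 libraries. In bulk RNA, more dividing cells and more message per dividing cell cannot be told apart.

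**Figure D1:**
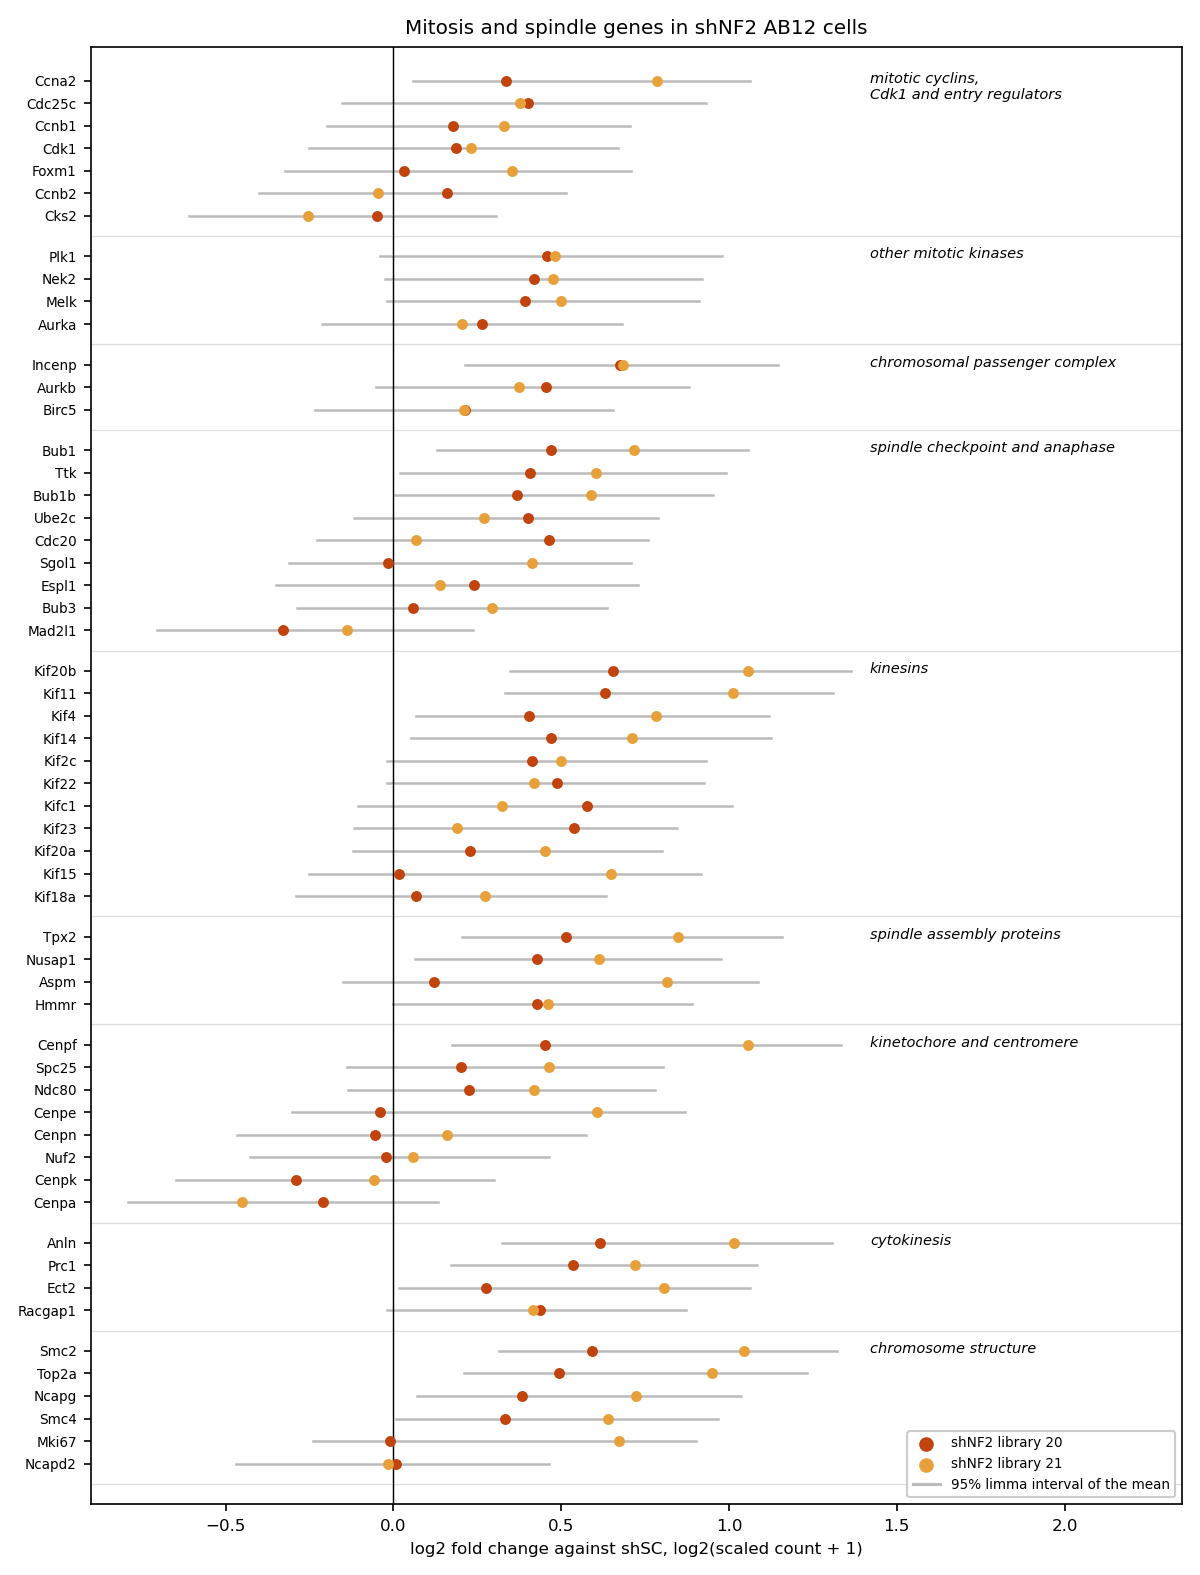
Log2 fold change of each mitosis and spindle gene in shNF2 library 20 and library 21 against the shSC library, by functional subgroup, with the 95% limma interval of their mean as a grey bar. Points lie right of 0 in both libraries for 45 of 56 genes, and 37 of the 56 intervals hold 0.

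The entry switch into mitosis had a smaller median difference than the set as a whole. Cyclin B with Cdk1 is the kinase that starts mitosis, and the 7 genes of this subgroup had a median log2 fold change of 0.21, with 5 above shSC in both shNF2 libraries. Ccna2, the cyclin of late S phase and early mitosis, had the highest fold change of them, with 4158 and 5680 scaled counts in libraries 20 and 21 against 3298 in shSC (log2 fold change 0.56 ± 0.23, limma adjusted p = 0.456). Ccnb1, the main cyclin of mitosis, had 5479 and 6081 in shNF2, against 4840 in shSC (0.25 ± 0.21). Cdc25c, the phosphatase that activates Cdk1, had 539 and 530 scaled counts in shNF2, against 408 in shSC (0.39 ± 0.25). Library 21 stood well above library 20 for Ccna2, while the shNF2 libraries nearly coincided for Cdc25c. Cks2, a small Cdk-binding protein, ran the other way, with 3857 and 3346 scaled counts in shNF2 against 3993 in shSC (-0.15 ± 0.21). The kinase Cdk1 itself, Ccnb2 and the transcription factor Foxm1 had log2 fold changes between 0.06 and 0.21.

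The other mitotic kinases and the chromosomal passenger complex gave values that lay close together in the shNF2 libraries. All 4 of these kinase genes were above shSC in both, with a median of 0.45. Plk1, which drives centrosome maturation and mitotic exit, had 794 and 809 scaled counts in libraries 20 and 21, against 578 in shSC (0.47 ± 0.24, limma adjusted p = 0.586). Nek2, a kinase that separates centrosomes, had 1458 and 1516 in shNF2, against 1090 in shSC (0.45 ± 0.22). Melk, a kinase abundant in dividing cells, had 1844 and 1988 in shNF2, against 1405 in shSC (0.45 ± 0.22). For these genes the gap to shSC was wider than the gap between the shNF2 libraries. The passenger complex corrects faulty attachments of chromosomes to the spindle and then marks the site of cleavage. Its scaffold gene Incenp had 1730 and 1743 scaled counts in shNF2, against 1084 in shSC (0.68 ± 0.22, adjusted p = 0.255). Its kinase gene Aurkb had 1791 and 1694 in shNF2, against 1308 in shSC (0.41 ± 0.22), and Birc5, which encodes survivin, had 5621 and 5607, against 4851 (0.21 ± 0.21).

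The checkpoint kinases and Mad2l1, the inhibitor that carries their signal, lay on opposite sides of shSC. The spindle checkpoint holds cells in metaphase until every chromosome is attached, by keeping Cdc20 from activating the anaphase-promoting complex. Bub1, a kinase that recruits the checkpoint to kinetochores, had 6761 and 8023 scaled counts in libraries 20 and 21, against 4881 in shSC (0.59 ± 0.21, limma adjusted p = 0.357). Ttk, the kinase at the top of the checkpoint, had 1307 and 1495 in shNF2, against 984 in shSC (0.51 ± 0.22), and Bub1b, part of the inhibitor complex, had 1885 and 2200, against 1461 (0.48 ± 0.22). Mad2l1, which binds and blocks Cdc20, was below shSC in both shNF2 libraries, with 12136 and 13842 scaled counts against 15239 (-0.23 ± 0.22, adjusted p = 0.791). The 95% interval of Mad2l1, -0.70 to 0.24, held 0, and under quantile normalization its log2 fold change was -0.07. The difference between Mad2l1 and the kinases was not tested. The remaining 5 genes of this subgroup (Bub3, Cdc20, Ube2c, Espl1 and Sgol1) had log2 fold changes between 0.18 and 0.34. They include the activator, an enzyme of the anaphase-promoting complex and the protease that cuts cohesin. Sgol1 had 1 shNF2 library on each side of shSC, at -0.02 in library 20 and 0.41 in library 21. In this subgroup 7 of 9 genes were above shSC in both shNF2 libraries.

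**Figure D2:**
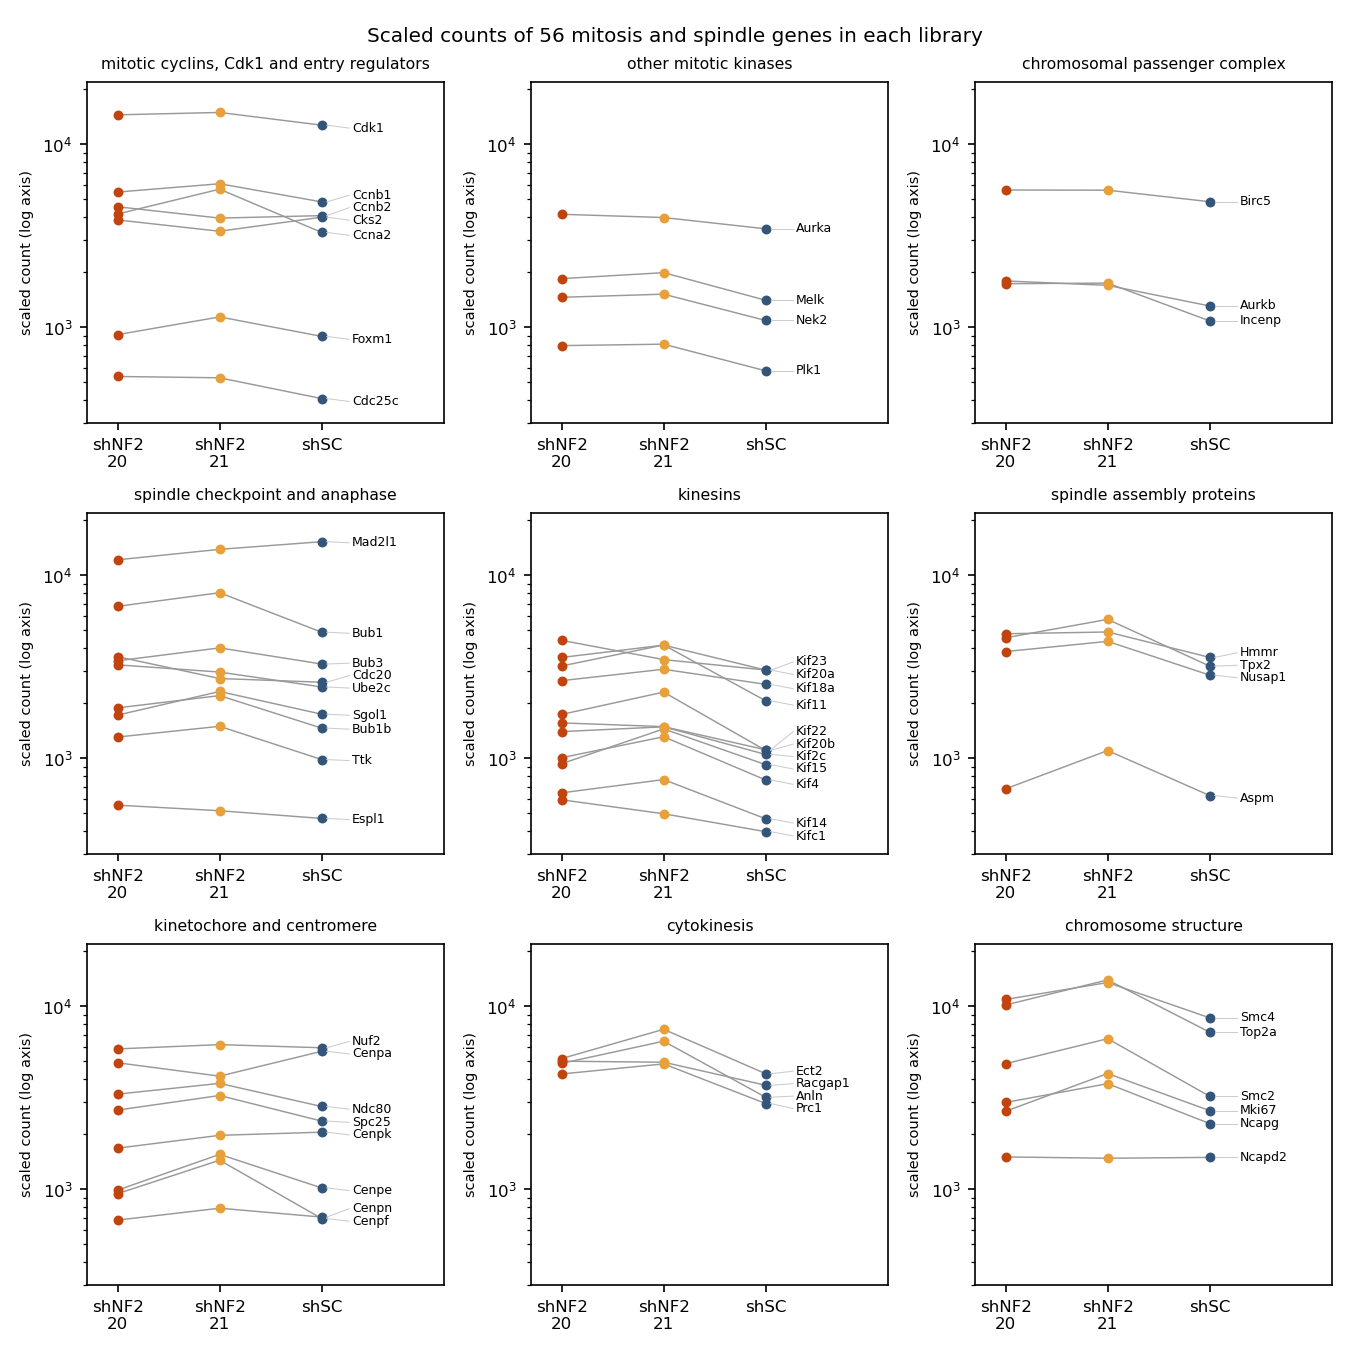
Scaled counts (log axis) of the 56 genes in shNF2 library 20, shNF2 library 21 and shSC, 1 panel per functional subgroup, with a line joining the values of 1 gene. Most lines drop towards shSC; those of Cks2, Mad2l1, Cenpa and Cenpk end above both shNF2 values.

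The motors held 2 of the 4 genes with a log2 fold change of at least 0.8. All 11 kinesin genes were above shSC in both shNF2 libraries, with a median of 0.45 and a range of 0.17 to 0.86. Kif20b, a motor of the late spindle and cytokinesis, had 1736 and 2299 scaled counts in libraries 20 and 21, against 1104 in shSC (0.86 ± 0.24, limma adjusted p = 0.157). Kif11, which pushes spindle poles apart, had 3193 and 4157 in shNF2, against 2061 in shSC (0.82 ± 0.23, adjusted p = 0.158). Kif4, a motor on chromosome arms and the central spindle, had 1007 and 1311 in shNF2, against 761 in shSC (0.59 ± 0.24). In library 21 Kif20b and Kif11 reached about 2.08 and 2.02 times shSC, and in library 20 they reached 1.57 and 1.55 times. Kif15, which backs up Kif11 in keeping the spindle bipolar, was at the level of shSC in one library and not in the other, with 934 and 1447 scaled counts in libraries 20 and 21, against 923 in shSC. The other 7 kinesin genes lay between 0.17 and 0.59.

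The 4 spindle assembly genes were all above shSC in both shNF2 libraries, with a median of 0.49. Tpx2, which activates Aurora A and nucleates microtubules near chromosomes, had 4551 and 5737 scaled counts in libraries 20 and 21, against 3188 in shSC (0.68 ± 0.22, limma adjusted p = 0.270). Nusap1, which bundles spindle microtubules, had 3828 and 4352 in shNF2, against 2846 in shSC (0.52 ± 0.21). Hmmr, a spindle pole protein that also binds hyaluronan, had 4788 and 4896 in shNF2, against 3558 in shSC (0.44 ± 0.21). Aspm, which focuses spindle poles, set the shNF2 libraries furthest apart of all 56 genes, with 681 scaled counts in library 20 and 1102 in library 21, against 626 in shSC.

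Kinetochore and centromere genes had the lowest share above shSC in both shNF2 libraries among the 9 subgroups. Of 8, 3 (37.5%) were above shSC in both shNF2 libraries, 2 were below it in both and 3 had 1 library on each side. Over all genes tested, 36.1% were above shSC in both. The subgroup median was 0.17, with -0.03 in library 20 and 0.29 in library 21. Cenpf, a large protein of the outer kinetochore, had the highest fold change of them, with 947 and 1441 scaled counts in libraries 20 and 21 against 692 in shSC (0.75 ± 0.27, limma adjusted p = 0.343). Spc25, a subunit of the Ndc80 complex that grips microtubule ends, had 2708 and 3252 in shNF2, against 2357 in shSC (0.33 ± 0.22). Cenpa, the histone H3 variant that marks centromeres, had the lowest fold change of the 56 genes, with 4907 and 4149 scaled counts in shNF2 against 5672 in shSC (-0.33 ± 0.21, adjusted p = 0.697). Cenpk, of the inner kinetochore, had 1678 and 1971 in shNF2, against 2051 in shSC (-0.17 ± 0.22). Cenpe, the kinetochore motor that moves chromosomes to the metaphase plate, had 990 scaled counts in library 20 and 1551 in library 21, against 1017 in shSC. Thus Cenpf and Cenpe were highest in library 21, whereas both shNF2 libraries were under shSC for Cenpa and Cenpk. The remaining members Cenpn, Ndc80 and Nuf2 had values between 0.02 and 0.32.

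Cytokinesis genes had the highest subgroup median, 0.58, and all 4 were above shSC in both shNF2 libraries. Anln, the anillin scaffold of the contractile ring, had 4874 and 6438 scaled counts in libraries 20 and 21, against 3182 in shSC (0.82 ± 0.23, limma adjusted p = 0.163). Prc1, which bundles the microtubules of the central spindle, had 4265 and 4840 in shNF2, against 2940 in shSC (0.63 ± 0.21, adjusted p = 0.295). Ect2, the exchange factor that activates RhoA at the cleavage site, had 5176 and 7478 in shNF2, against 4279 in shSC (0.54 ± 0.24). Both shNF2 values exceeded shSC for each of these, with library 20 the nearer to shSC. The fourth gene, Racgap1 of the centralspindlin complex, had a log2 fold change of 0.43.

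Genes of chromosome structure had a median of 0.52, with 4 of 6 above shSC in both shNF2 libraries. Smc2, the core ATPase of the condensins that compact chromosomes, had 4854 and 6646 scaled counts in libraries 20 and 21, against 3222 in shSC (0.82 ± 0.23, limma adjusted p = 0.172). Top2a, the topoisomerase that untangles sister chromatids, had 10159 and 13915 in shNF2, against 7213 in shSC (0.72 ± 0.24, adjusted p = 0.276). Ncapg, another condensin subunit, had 2981 and 3774 in shNF2, against 2286 in shSC (0.55 ± 0.22). Mki67, which encodes the proliferation marker Ki-67 that coats mitotic chromosomes, differed between shNF2 libraries, with 2669 scaled counts in library 20 and 4288 in library 21, against 2689 in shSC. Thus library 20 alone would place Mki67 level with the control, at a log2 fold change of -0.01, and library 21 alone would place it at 0.67. Of the other members here, Ncapd2 was at -0.00374 and Smc4 at 0.49.

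Mitotic genes outside the set had a smaller median difference. A further list of 94 mitosis genes (further subunits of the anaphase-promoting complex, kinetochore, condensin, cohesin and spindle) had 93 in the table, all tested; 0 passed in either direction, 60 were above shSC in both shNF2 libraries and 13 below it in both, with a median of 0.20. Ncaph, a condensin subunit, had 1937 and 1795 scaled counts in libraries 20 and 21, against 1144 in shSC (log2 fold change 0.70 ± 0.22, limma adjusted p = 0.226). Gtse1, a microtubule-binding protein, had 0.67 and the cohesin gene Smc3 had 0.60. Among 44 DNA replication genes 0 passed, 23 were above shSC in both and 13 below it in both, with a median of 0.09. Lig1, the replicative DNA ligase, and Rpa1, of the single-strand binding complex, had 0.56 and 0.52, and Rpa3, of the same complex, had -0.66. Those above shSC in both were 64.5% of the further mitosis genes and 52.3% of the replication genes, beside 36.1% of all genes tested. The difference between the lists was not tested, and all were chosen with earlier results of these data known.

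Regulators of mitotic transcription had a small median difference. Of 23 genes of the DREAM complex, the E2F and retinoblastoma families, NF-Y and p53 with its target Cdkn1a, 0 passed, 12 were above shSC in both shNF2 libraries and 6 below it in both. Their median was 0.03 for the mean of both libraries, 0.06 in library 20 and 0.15 in library 21. Those above shSC in both were 52.2% of these genes, beside 36.1% of all genes tested. E2f7, a repressor of the E2F family that is itself induced in cycling cells, had 368 and 388 scaled counts in libraries 20 and 21, against 220 in shSC (0.78 ± 0.27, limma adjusted p = 0.328). For Nfyb, a subunit of the CCAAT-binding factor, the log2 fold change was 0.44, and for the retinoblastoma relative Rbl1 it was 0.34.

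**Figure D3:**
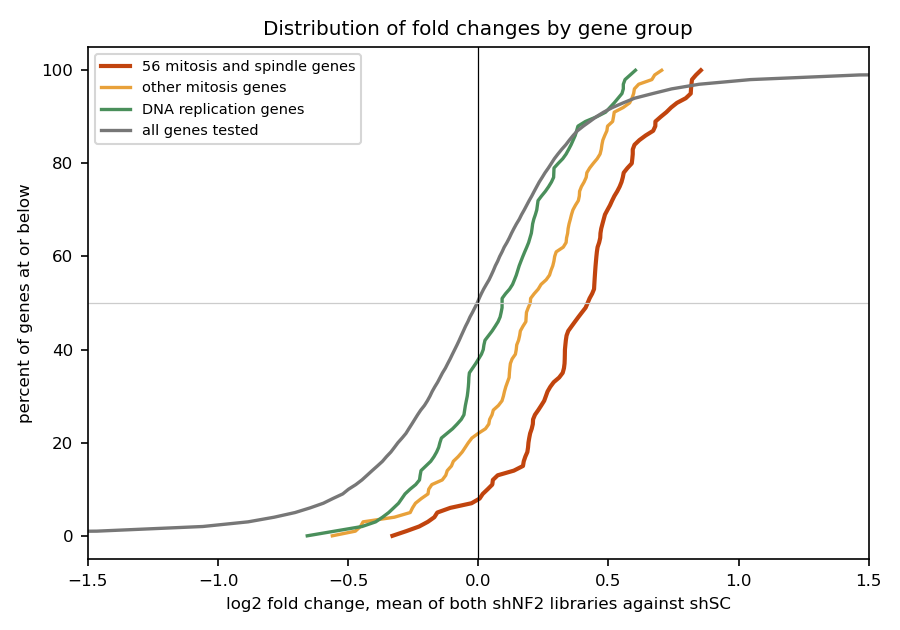
Cumulative distribution of the log2 fold change (mean of both shNF2 libraries against shSC) for the 56 mitosis and spindle genes, the other mitosis genes, DNA replication genes and all genes tested. The curves cross 50% at 0.42, 0.20, 0.09 and about 0.

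Library 21 lay above library 20 for 41 of the 56 genes, beside 50.8% of all genes, with a median difference of 0.19 on the log2 scale. The widest gaps were those of Aspm (0.69), Mki67 (0.68), Cenpe (0.65), Kif15 (0.63) and Cenpf (0.61). Library 21 also differed from shSC with the base composition and length of transcripts, both measured on human transcripts of the same symbols as stand-ins. When all genes were put in 8 groups by GC, its median log2 fold change was 0.19 in the lowest group and -0.31 in the highest, and that of library 20 was 0.02 and -0.05. The 56 genes had a median stand-in GC of 42.4%, beside 49.8% for all genes with a stand-in. Across the 56 genes, whose values share libraries and depth, Spearman's rho of fold change with GC was 0.15 for library 20 and -0.31 for library 21. For the 28 members of lower GC the medians were 0.33 in library 20 and 0.61 in library 21, and for the 28 of higher GC they were 0.40 and 0.37. After correction of each library for GC and length the median of the 56 genes was 0.34, with 0.36 in library 20 and 0.39 in library 21. Stand-in lengths, such as 579 bases for Top2a, 757 for Anln and 5468 for Mad2l1, may not be those of the mouse messages. The length part of the correction may therefore be inexact for single genes, and how far it rests on these lengths was not tested. In the corrected fit 45 genes were above shSC in both and 6 were below it in both, against 45 and 4 without the correction.

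**Figure D4:**
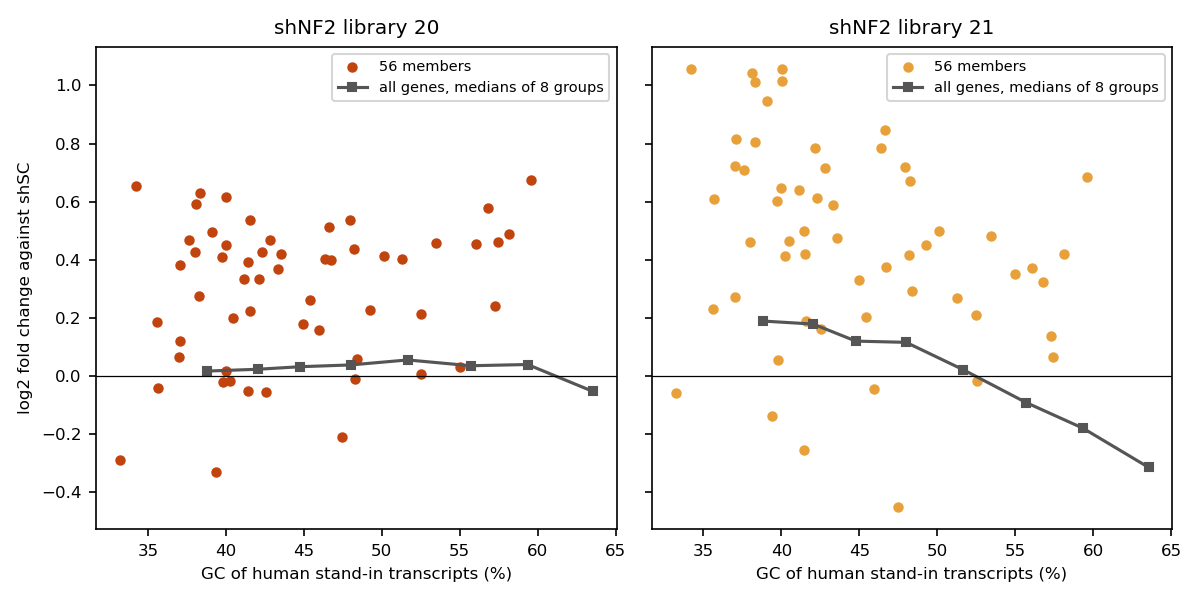
Log2 fold change of the 56 genes against the GC content (%) of human stand-in transcripts in shNF2 library 20 and library 21, with medians of all genes in 8 groups of GC as a grey line. The grey line falls with GC in library 21 and stays near 0 in library 20, and most members lie above it in both.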

How the data were processed

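RNA of 3 AB12 libraries (2 shNF2, 1 shSC) was selected for polyA and read as pairs from stranded TruSeq libraries, per the labels' protocols. The authors deposited 1 table of gene signal, described by its name as scaled counts. Per the submitters' processing notes the build was mm10, and DESeq 1.22.1, HTSeq 0.5.3, STAR 2.5.0a and cutadapt 1.6 were used in steps that are not specified. The sources used here do not say whether counting used strand. With a tolerance of 0.001 reads, 100% of the deposited values were whole reads divided by 1 factor per library (0.956 for library 20, 1.03 for library 21, 1.03 for shSC). Genes with few reads had been removed before deposit: the smallest total was 15 reads. The 4 rows that name no gene, with 48.7%, 47.7% and 48.6% of all reads in library 20, library 21 and shSC, were left out.

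Libraries labelled shNF2 were compared with shSC by limma 3.58.1 (R 4.3.3, variance trend) on log2(scaled count + 1). Genes needed a mean of at least 10, which 12813 had. Fold changes on this scale understate the change of low genes. The residual degree of freedom, 1, was moderated with 11.9 prior degrees of freedom. Each gene's p-value therefore rests mostly on the spread of the shNF2 libraries pooled over genes, and less on its own. Nothing says that the libraries came from separate cultures, so this spread may be only technical. The smallest p of an exact permutation test with 2 and 1 libraries would be 0.333. The recovered reads were also tested with DESeq2 1.42.0 and with edgeR 4.0.16 by quasi-likelihood.

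The 56 genes, their 9 subgroups and the other lists were chosen with earlier results of these data known. Named genes were Nf2; the 3 members with the smallest p in each subgroup; members below shSC in both shNF2 libraries; the 5 with the largest difference between libraries 20 and 21; and the 3 with the smallest p in each further list. Length and GC were medians over protein-coding human GENCODE transcripts matched by symbol or synonym, found for 10291 tested genes (80.3%) and all 56 members; the trends were fitted per library with mgcv 1.9.3 and removed. No mouse sequence was used here, and promoter motifs were not analysed here.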

Additional observations from a re-analysis of the deposited data

How the results depend on the processing

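None of the 56 genes passed under any of the 11 alternative fits (pseudocounts of 0.5 and 10, no filter, a mean of at least 50, no variance trend, robust moderation, quantile normalization, TMM, edgeR, DESeq2, and GC and length correction); the lowest adjusted p of a member was 0.0553, without the filter. The count of members above shSC in both shNF2 libraries was 44 under quantile normalization and 45 in the others. Their median log2 fold change ran from 0.34 with GC and length correction to 0.42. With 1 shNF2 library left out at a time, a value with no test, 47 to 50 members were above shSC and the median ran from 0.37 to 0.46. Over all genes, 108 were called; no filter gave 232 (110 higher, 122 lower), and quantile normalization and no variance trend gave 0 and 0, with 882 and 1036 genes at an unadjusted p under 0.05. Under both, the limma call on Nf2 was also lost (adjusted p = 0.496 and 0.187, log2 fold changes of -1.72 and -1.70). In these 11 fits, 482 of 484 values of the 44 named genes kept their direction and their side of the threshold, the exceptions being those of Nf2. Without library 21, Cenpe and Mki67 were at -0.04 and -0.01, against 0.28 and 0.33 with both libraries; no other named gene changed sign with 1 shNF2 library left out. The median of all genes moved by less than 0.1 in every fit. No paired analysis was possible because the groups share no replicate numbers. The single shSC library could not be left out, so how far each value rests on it was not tested. The lowest read count of a member was 408.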
